A study of Mus musculus with 4 samples.

Results

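Ion channels let potassium, sodium or calcium cross cell membranes, and 3 groups of their genes were followed in medullary thymic epithelial cells. The members were chosen by symbol, with earlier results of these data known. They are every gene whose symbol starts with Kcn, with Scn and a digit, or with Cacna1. They were 120 genes of 22999 with a symbol, or 218 of 30794 RefSeq IDs. Of them, 96 encode pore-forming subunits, 21 encode accessory or regulatory proteins and 3 are antisense RNAs. By the tissue in which each channel is mainly used, 46 were listed as neuronal, 19 as cardiac and muscle, 13 as epithelial, 5 as sensory and 37 in no list.

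RNA-seq counts came from mTEChi, the mature medullary epithelial cells of the mouse thymus with high MHC class II. Libraries labelled Aire-KO (genotype Aire-/-, the B6.129S2 line with the targeted Aire allele tm1.1Doi) were set against libraries labelled WT. All mice were B6 and 4 weeks old. The experiment was done in duplicate, with 1 library per genotype each time and cells sorted from pools of 4 mice, so n = 2 per genotype and p-values measure the spread between these pools. With this design the comparison asks which channel genes depend on Aire, the transcriptional regulator that lets mTEChi express genes of peripheral tissues.

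A potassium channel is built from pore-forming subunits of several families. Voltage-gated (Kv) subunits open on depolarization, inward rectifiers (Kir) set the resting potential, and K2P subunits with a pair of pore domains carry background leak currents. Accessory proteins such as KCNE, KChIP and BK beta subunits change gating or surface level. Neurons, heart, muscle and transporting epithelia each use their own combination, and some of these proteins are targets of autoantibodies in human disease.

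The pore of a potassium channel carries a short signature, the selectivity filter, a threonine, a hydrophobic residue, glycine, an aromatic residue and glycine. Its codons (a threonine codon, any codon with T in the middle, a glycine codon, any codon that starts with T, and a glycine codon) were sought in frame in the coding sequences of GENCODE vM1 (mm9), on the coding strand only. They were present in 64 of 77 potassium channel pore subunits with a coding sequence (83.1%), against 200 of 22594 coding genes in all (0.885%). None of 20 accessory subunits and none of 19 sodium or calcium channel alpha subunits held them. All 8 Kv1, 5 KCNQ and 10 silent Kv genes did, as did 14 of 15 Kir and 12 of 14 K2P genes, but 1 of 8 EAG and 1 of 4 SK genes. The stretches below belong to 6 of the 9 pore-forming genes that were lower in the libraries labelled Aire-KO. Of the other 3, Kcnk1 had no match to this pattern. The codons of the filter are in capitals.
Kcna5 (Kv1; chr6:126483757-126483783, minus strand): atgaccACTGTAGGCTACGGGgacatg
Kcns1 (silent Kv; chr2:163990584-163990610, minus strand): atgaccACAGTGGGCTATGGGgatgtg
Kcnc4 (Kv3; chr3:107250711-107250737, minus strand): atgacaACGCTTGGCTATGGGgacatg
Kcnj9 (Kir; chr1:174256309-174256335, minus strand): gagaccACCATCGGCTATGGGcaccgg
Kcnk5 (K2P; chr14:20963864-20963890, minus strand): atctccACCATTGGCTTTGGGgacttt
Kcnk9 (K2P; chr15:72343143-72343169, minus strand): ttgactACTATAGGGTTCGGCgatttt
Over the matches that lay inside a single exon, the aromatic residue was phenylalanine in all 11 K2P genes, with a single match in each. K2P subunits have a pair of pore domains, so the filter of the other domain is not covered here. The residue was tyrosine in all 23 Kv1, Kv2, Kv3 and silent Kv genes and in 12 of 14 Kir genes. No Kv4 match lay inside a single exon.

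Summed over 1 RefSeq ID per gene, the libraries held 120687990 and 175483227 counts (labelled Aire-KO) and 138877524 and 81814963 counts (labelled WT). Channel genes took 0.216% and 0.148% of them in the libraries labelled Aire-KO, and 0.185% and 0.143% in those labelled WT. Aire itself had 200697 and 175884 counts in the libraries labelled Aire-KO, against 87229 and 36597 in those labelled WT (log2 fold change 1.65, adjusted p = 0.0899, edgeR). That direction is opposite to a loss of Aire transcript. These counts cover the whole transcript, and counts of the single parts of Aire were not looked at here. They therefore do not settle the label. Aire is known mainly to raise the expression of its target genes, and over all genes tested 1295 were lower and 55 higher in the libraries labelled Aire-KO. Every direction below rests on the labels. The mTEC markers were present (10 of 10 measured, summed at 29379 and 33866 CPM labelled Aire-KO and 16260 and 24564 CPM labelled WT). The 13 thymocyte markers summed to 49.6 and 57.5 CPM labelled Aire-KO and 64.9 and 93.2 CPM labelled WT. Of these sums, Cd4 gave 25.4 and 31.1 CPM labelled Aire-KO and 14.7 and 22.0 CPM labelled WT. The log2 fold change was negative for 12 of the 13 and positive for 1, Cd4 (median −1.36). None was called with genotype only. With the experiment as a block 6 were lower and none higher, against 15.8% and 9.26% of all genes. In such bulk samples, fewer cells of a type and less RNA per cell cannot be told apart.

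Most channel genes were transcribed at a low level in mTEChi. The median member stood at 0.525 and 0.407 RPKM (counts per kb of exon, scaled by the library total) in the libraries labelled Aire-KO, against 1.09 and 0.907 RPKM in those labelled WT. At least 1 RPKM in both libraries of a genotype was reached by 35 members labelled Aire-KO and by 53 labelled WT. No count at all was found for 1 and 11 members in the libraries labelled Aire-KO, against 0 and 3 in those labelled WT.

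The highest levels belonged to a few genes, and epithelial and neuronal channels stood side by side among them. Kcnj15, an inward rectifier of kidney and other epithelia, had 105.5 and 52.8 RPKM in the libraries labelled Aire-KO and 89.7 and 63.2 RPKM in those labelled WT, and it alone took between 18% and 24.6% of all channel gene counts in a library. Its genotypes overlapped. Kcnip3, which encodes a calcium-binding KChIP protein, followed at 38.0 ± 9.64 RPKM labelled Aire-KO and 36.8 ± 1.11 RPKM labelled WT (SD, n = 2 each). Kcnk6, a K2P channel, had 46.7 ± 12.2 RPKM labelled Aire-KO and 33.8 ± 11.7 RPKM labelled WT. Kcnh6, an EAG-family (Erg) channel, had 40.5 ± 21.6 RPKM labelled Aire-KO and 20.03 ± 4.93 RPKM labelled WT. These 4 neighbours in the WT order were followed by Kcnq1, Cacna1b, Kcnh3, Scn4b, Kcne1l and Kcna2, which lay between 14.1 and 7.21 RPKM on average in the libraries labelled WT. In that order Kcnj15 and Kcnip3, Kcnk6 and Kcnh6, Kcnh6 and Kcnq1, and Kcnh3 and Scn4b lay further apart than the larger SD of the pair, and the other neighbours did not. Of these 10 genes only Kcne1l passed the test between genotypes in the fit with genotype only. With the experiment as a block, Kcnk6, Kcnh6, Cacna1b and Kcna2 (higher in the libraries labelled Aire-KO) and Kcnq1 (lower) passed as well.

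**Figure D1:**
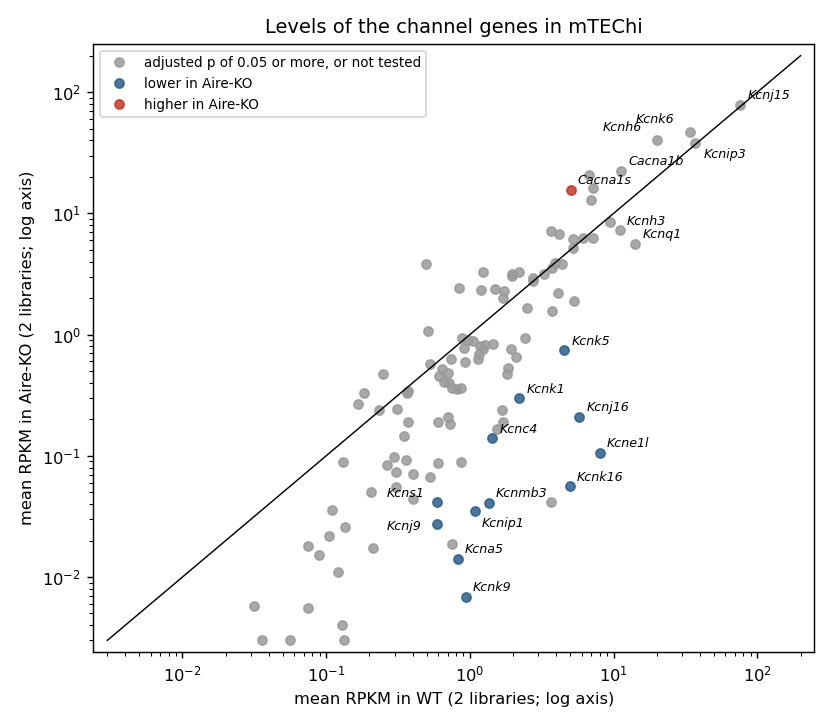
Mean RPKM of each channel gene with a length (119 genes) in the libraries labelled Aire-KO (y axis) and WT (x axis), 2 libraries each, on log axes. Points in blue were lower and in red higher in the libraries labelled Aire-KO at an adjusted p under 0.05 (edgeR); the line marks equal levels, and means under 0.003 are drawn at 0.003. Kcnj15, the most abundant member, at 79.2 RPKM labelled Aire-KO and 76.4 RPKM labelled WT, lies near the line, while the 12 blue points lie well below it.

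Of the 116 channel genes that passed the filter on low counts, 12 were lower and 1 was higher in the libraries labelled Aire-KO at an adjusted p under 0.05 (edgeR). The share lower was 10.3%, beside 6.3% of all 20560 genes tested, and the share higher was 0.862%, beside 0.268%. Without adjustment, 34 members (29.3%, against 18% of all genes) had a p under 0.05 with a lower and 10 (8.62%, against 3.81%) with a higher level. The median log2 fold change of the members was −0.43, against 0.03 over all genes tested. Both libraries labelled Aire-KO lay below both labelled WT for 50 members (43.1%, against 29.3% of all genes), and above for 20 (17.2%, against 20.9%). The 4 members under the filter were Kcna10, Kcnd3os, Kcns2 and Kcnv2.

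The libraries pair by experiment, and with the experiment as a block 25 members were lower and 16 higher in the libraries labelled Aire-KO, against 15.8% and 9.26% of all genes in the same fit. All 13 genes called without the block were among them. Leaving out WT replicate 1 kept 5 of the 13 calls (Kcne1l, Kcnk16, Kcnj16, Kcna5 and Kcnip1) and leaving out WT replicate 2 kept 8 (these and Kcnj9, Kcnk5 and Kcnk9), with every fold change in the same direction. In these fits 1 genotype has a single library, which is assumed to vary like the libraries of the other. In all, 8 members were lower and 2 higher without WT replicate 1 (against 6.12% and 0.371% of all genes), and 11 and 0 without WT replicate 2 (against 4.4% and 0.0714%). Without Aire-KO replicate 1 the counts were 26 and 3 (against 15% and 0.577%), and without Aire-KO replicate 2 they were 19 and 8 (against 11% and 1.97%). DESeq2 called 23 lower and 5 higher, against 13.5% and 1.99% of all genes, and with library sizes alone in place of TMM the counts were 18 and 1, against 10.6% and 0.229%. Library sizes alone moved the median of all genes to −0.27 and turned 14 of the 116 fold changes negative, none of them of a called gene. With DESeq2 and with library sizes alone, all 13 genes were among the calls.

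**Figure D2:**
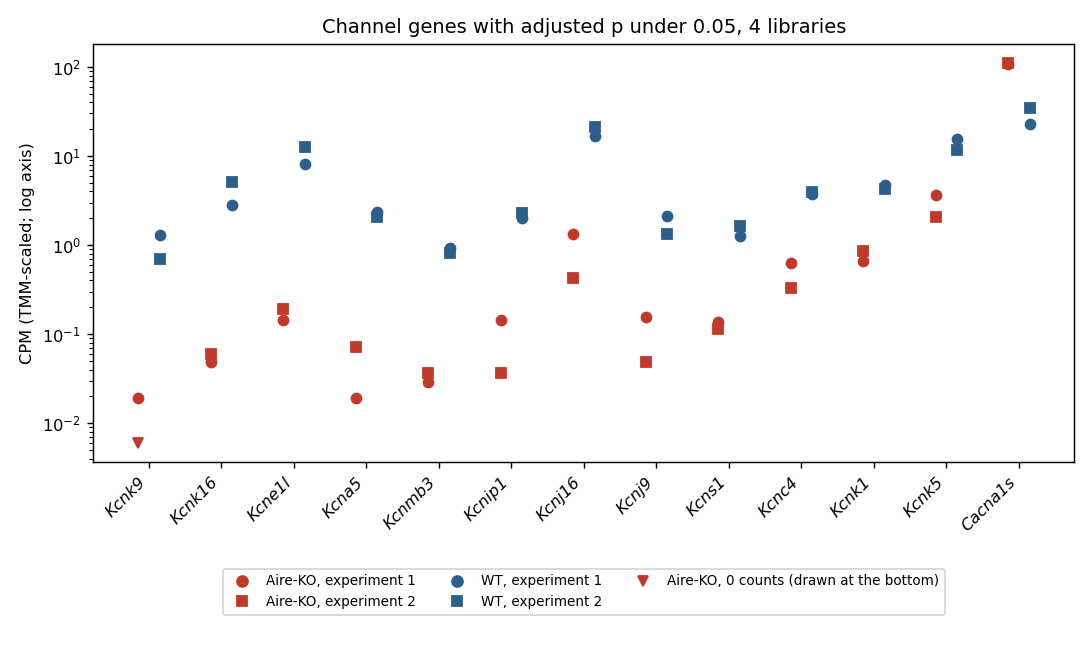
CPM (TMM-scaled, log axis) of the 13 channel genes with an adjusted p under 0.05, in each of the 4 libraries, with Aire-KO left of WT for each gene. In 12 genes both libraries labelled Aire-KO lie below both labelled WT, from Kcnk9 with 0.0194 and 0 CPM labelled Aire-KO to Kcnk5 with 3.60 and 2.05 CPM; in Cacna1s they lie above.

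The K2P family held 4 of the 12 genes that were lower, of 14 members tested (28.6%, beside 6.3% of all genes). The median log2 fold change of the family was −2.23. Kcnk16, an alkaline-activated channel of the pancreas (TALK-1), had 5 and 10 counts in the libraries labelled Aire-KO, against 444 and 453 in those labelled WT. That is 0.0485 and 0.0603 CPM labelled Aire-KO against 2.78 and 5.14 CPM labelled WT, a log2 fold change of −6.15 ± 0.73 (SE, adjusted p = 0.018, edgeR). The genotypes did not overlap. Kcnk5 (TASK-2), which serves bicarbonate handling in the kidney, had 371 and 341 counts labelled Aire-KO against 2466 and 1032 labelled WT. Its log2 fold change was −2.27 ± 0.49 (adjusted p = 0.0491, edgeR). In RPKM it had 0.746 ± 0.238 labelled Aire-KO beside 4.51 ± 1.08 labelled WT, while Kcnk16 had 0.056 ± 0.0125 labelled Aire-KO beside 4.97 ± 1.88 labelled WT (SD, n = 2 each). Kcnk1 (TWIK-1), expressed in kidney and brain, had 69 and 142 counts labelled Aire-KO against 762 and 379 labelled WT (log2 −2.57 ± 0.52, adjusted p = 0.0433). Kcnk9 (TASK-3), a leak channel of cerebellar and other neurons, was nearly absent from the libraries labelled Aire-KO, with 2 and 0 counts against 209 and 62 labelled WT (adjusted p = 0.0423, edgeR). From these sums the level labelled WT was 147 times that labelled Aire-KO, with an exact binomial interval of 40.3 to 1221 that covers counting error only.

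The other 10 K2P genes did not pass the test. Kcnk6, the abundant member, stood at 265 and 165 CPM labelled Aire-KO and 150 and 96.9 CPM labelled WT, with a log2 fold change of 0.80 and an adjusted p of 0.381 (edgeR), and of 0.0171 with the block. Of all 14 K2P genes, 10 had both libraries labelled Aire-KO below both labelled WT (71.4%, against 29.3% of all genes). In 1 they lay above (7.14%, against 20.9%).

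Among the 15 inward rectifiers, 2 were lower in the libraries labelled Aire-KO (13.3%, beside 6.3% of all genes) and none higher (family median log2 0.01). Kcnj16 (Kir5.1), which pairs with Kir4.1 in the basolateral membrane of kidney tubules, had 137 and 70 counts labelled Aire-KO against 2658 and 1872 labelled WT (log2 −4.44 ± 0.69, adjusted p = 0.0262). Its partner Kcnj10 (Kir4.1) had 55 and 94 counts labelled Aire-KO and 246 and 171 labelled WT, with an adjusted p of 0.162. For both genes the libraries labelled Aire-KO lay below those labelled WT. Kcnj9 (Kir3.3, a subunit of G-protein-gated channels of neurons) had 16 and 8 counts labelled Aire-KO against 337 and 118 labelled WT (log2 −4.11 ± 0.87, adjusted p = 0.0475, edgeR). Its assembly partners did not share that fold change: Kcnj3 (Kir3.1) had 6460 and 2934 counts labelled Aire-KO and 1985 and 680 labelled WT (log2 2.00, adjusted p = 0.137, and 0.00248 with the block), and Kcnj6 (Kir3.2) had a log2 fold change of 0.01 (−0.30 with library sizes alone). An overlapping lincRNA on the opposite strand shares 31.1% of the exon bases of Kcnj3, which these unstranded counts cannot separate. Kcnj11, the pore of the ATP-sensitive channel of beta cells and muscle, had 16.4 and 19.3 CPM labelled Aire-KO and 10.9 and 18.6 CPM labelled WT.

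Voltage-gated potassium subunits gave 3 further genes that were lower. Kcna5 (Kv1.5), which carries the ultrarapid current of the atrium, had 2 and 12 counts in the libraries labelled Aire-KO, against 377 and 182 in those labelled WT. Its log2 fold change was −5.50 ± 0.86 (adjusted p = 0.0271, edgeR), and its genotypes did not overlap. Kcns1, a silent subunit that modifies Kv2 channels in neurons, had 14 and 19 counts labelled Aire-KO against 200 and 144 labelled WT (log2 −3.52 ± 0.71, adjusted p = 0.043). Kcnc4 (Kv3.4), a fast inactivating channel, had 65 and 54 counts labelled Aire-KO against 603 and 347 labelled WT (log2 −3.02 ± 0.61, adjusted p = 0.043).

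No other Kv1 gene passed the test without the block. With it 1 of the 7 Kv1 genes tested was lower and 3 were higher, against 15.8% and 9.26% of all genes. Kcna2, a channel of myelinated axons, had 82.4 and 44.2 CPM labelled Aire-KO against 31.7 and 12.5 CPM labelled WT (log2 1.52, adjusted p = 0.188, and 0.000841 with the block). Kcna1 (log2 −0.11) and Kcna6 (log2 −0.11) had adjusted p-values of 0.936 and 0.97. Of Kcna6, 39.5% of the exon bases are shared with a lincRNA on the opposite strand. Kcng3, another silent subunit, had the largest positive fold change of any member, 3.32, with 2473 and 903 counts labelled Aire-KO and 329 and 76 labelled WT, and an adjusted p of 0.0731, or 0.000339 with the block. No gene of the EAG family passed the test without the block. Kcnh6 was at log2 1.36 (adjusted p = 0.198, edgeR, and 0.00594 with the block) and Kcnh3 at −0.32 (adjusted p = 0.744). With the block, 2 of the 8 EAG genes were lower and 2 higher, against 15.8% and 9.26% of all genes. Among the 5 KCNQ genes, Kcnq1, the channel of heart and of stomach, kidney and airway epithelium, had 15.9 and 21.6 CPM labelled Aire-KO and 30.2 and 47.3 CPM labelled WT (log2 −1.05, adjusted p = 0.202, and 0.00818 with the block).

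Accessory subunits included the gene with the smallest p of all members. Kcne1l, a KCNE-type modifier on the X chromosome (X:138739295-138740837, minus strand), had 15 and 32 counts in the libraries labelled Aire-KO against 1311 and 1120 in those labelled WT. That was 0.106 ± 0.0284 RPKM labelled Aire-KO against 7.998 ± 2.08 RPKM labelled WT (SD, n = 2 each), a log2 fold change of −5.93 ± 0.59 (adjusted p = 0.018, edgeR). Kcnmb3, a beta subunit of the BK channel, had 3 and 6 counts labelled Aire-KO against 149 and 71 labelled WT (log2 −4.68 ± 0.87, adjusted p = 0.037). Kcnip1, a KChIP protein of neurons, had 15 and 6 counts labelled Aire-KO against 325 and 204 labelled WT (log2 −4.62 ± 0.89, adjusted p = 0.0388). In all, 3 of 21 accessory genes were lower and none higher, with a median log2 fold change of −0.85. Of 93 pore-forming genes, 9 were lower and 1 higher, with a median of −0.36. Over all genes tested the shares were 6.3% lower and 0.268% higher.

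Other accessory genes lay just outside the threshold. Kcnmb1, the smooth muscle beta subunit of the BK channel, had 24 and 96 counts labelled Aire-KO and 433 and 343 labelled WT (log2 −3.01, adjusted p = 0.0569, and 0.00377 with the block). Kcne2, the partner of Kcnq1 in gastric acid secretion, had 17 and 0 counts labelled Aire-KO and 935 and 467 labelled WT (log2 −6.17 ± 1.47, adjusted p = 0.0618, and 0.00142 with the block). Its fold change was as large as that of Kcnk16, but its libraries labelled Aire-KO differed more from each other. The members nearest to the threshold were Kcnk5 just inside (adjusted p = 0.0491) and Kcnt1 and Scn10a just outside (0.0513 each).

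Cacna1s, the alpha1 subunit of the L-type calcium channel of skeletal muscle, was the member that was higher in the libraries labelled Aire-KO. It lies on chromosome 1 (mm9, 1:137949327-138016399, plus strand) and had 11011 and 18351 counts labelled Aire-KO against 3610 and 3019 labelled WT. In RPKM that was 14.6 and 16.7 labelled Aire-KO against 4.16 and 5.90 labelled WT (log2 fold change 1.94 ± 0.40, adjusted p = 0.0452, edgeR). The call was lost without WT replicate 1 (adjusted p = 0.173) and without WT replicate 2 (0.0899). None of 5 skeletal muscle markers (Myog, Myod1, Ckm, Actn2, Chrna1) was called. Their sum was 31.5 and 40.8 CPM labelled Aire-KO and 30.6 and 53.5 CPM labelled WT. Their log2 fold changes ran from −6.07 (Myod1) to 0.63 (Myog), with 4 negative and 1 positive. Of 8 fibroblast markers, 3 were higher, and the sum of the 8 was 445 and 384 CPM labelled Aire-KO against 186 and 148 CPM labelled WT. All 8 log2 fold changes were positive, from 0.11 (Pdgfrb) to 2.12 (Dpt). Among the 3, Col3a1 had 65.9 and 89.7 CPM labelled Aire-KO against 24.3 and 19.6 CPM labelled WT. The part of either cell type in the result was not tested.

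None of the other 9 calcium channel alpha1 genes passed the test without the block. With it, 1 of the 10 alpha1 genes was lower and 3, Cacna1s among them, were higher, against 15.8% and 9.26% of all genes. Cacna1b, the N-type channel of presynaptic terminals, was the most abundant, with 235 and 128 CPM labelled Aire-KO and 82.4 and 62.7 CPM labelled WT (log2 1.33, adjusted p = 0.146, and 0.00245 with the block). Cacna1i, a T-type channel of the thalamus, had 43 and 2 counts labelled Aire-KO and 954 and 642 labelled WT (log2 −4.99, adjusted p = 0.0827, and 0.00324 with the block). Cacna1g, another T-type channel, stood at 5.51 and 5.39 CPM labelled Aire-KO and 8.66 and 4.89 CPM labelled WT, and its genotypes overlapped. In the sensory list, Cacna1f, of photoreceptors, had 3.37 and 3.04 CPM labelled Aire-KO and 1.39 and 1.33 CPM labelled WT (adjusted p = 0.221). Cacna1d, of inner hair cells, had an adjusted p of 0.714.

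No sodium channel gene passed the test without the block, neither among 9 alpha subunits (median log2 0.13) nor among 4 beta subunits (median log2 0.19). With the block, 1 alpha subunit was lower and 1 higher, against 15.8% and 9.26% of all genes, and no beta subunit was called. Scn10a (Nav1.8, of nociceptive neurons) came closest, with 49 and 77 counts labelled Aire-KO and 577 and 207 labelled WT. Its log2 fold change was −2.67 (adjusted p = 0.0513, edgeR, and 0.00822 with the block). The beta subunits Scn4b (log2 0.14) and Scn2b (log2 0.25) had adjusted p-values of 0.902 and 0.798, and both fold changes turned negative with library sizes alone.

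Members known in humans as autoantigens were measured as well. Kcnrg, whose human counterpart is a lung autoantigen in patients who lack functional AIRE, had 9.51 and 2.72 CPM labelled Aire-KO and 7.17 and 3.79 CPM labelled WT (log2 0.16, or −0.21 with library sizes alone; adjusted p = 0.941, edgeR). Cacna1a, the P/Q-type calcium channel targeted in Lambert-Eaton syndrome, had 17.6 and 12 CPM labelled Aire-KO and 21.1 and 14.2 CPM labelled WT (log2 −0.25, adjusted p = 0.825). The genotypes overlapped for both genes.

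The lists by tissue differed in their counts. Of 13 epithelial channels, 4 were lower in the libraries labelled Aire-KO (30.8%, beside the 6.3% of all genes) and none higher, with a median log2 fold change of −1.76. They were Kcnk16, Kcnj16, Kcnk1 and Kcnk5. For 10 of the 13, both libraries labelled Aire-KO lay below both labelled WT (76.9%, against 29.3% of all genes). Kcnj15 (log2 0.39), Kcnk6 (0.80) and Kcnn4 (0.24, and −0.061 with library sizes alone) did not pass the test, so the 2 most abundant epithelial channels were not among the genes that were lower.

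Of 45 neuronal channels tested, 4 were lower (8.89%) and none higher, with a median of −0.40. These were Kcnip1, Kcnk9, Kcns1 and Kcnj9. Of 19 cardiac and muscle channels, Kcna5 was lower and Cacna1s higher, with a median of 0.13. None of 3 sensory channels tested was called, and 1 of them had an unadjusted p under 0.05. The 36 genes in no list had 3 lower (Kcne1l, Kcnmb3 and Kcnc4) and a median of −0.33. With the block, the epithelial list had 7 lower and 1 higher, the neuronal list 10 and 5, and the cardiac and muscle list 3 and 5. The shares of all genes in the same fit were 15.8% lower and 9.26% higher. The neuronal list had 12 lower and 0 higher without Aire-KO replicate 1, 9 and 3 without Aire-KO replicate 2, 2 and 1 without WT replicate 1, and 5 and 0 without WT replicate 2. The lists were made with earlier results of these data known. They were compared by these counts and medians only, and their differences were not tested.

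**Figure D3:**
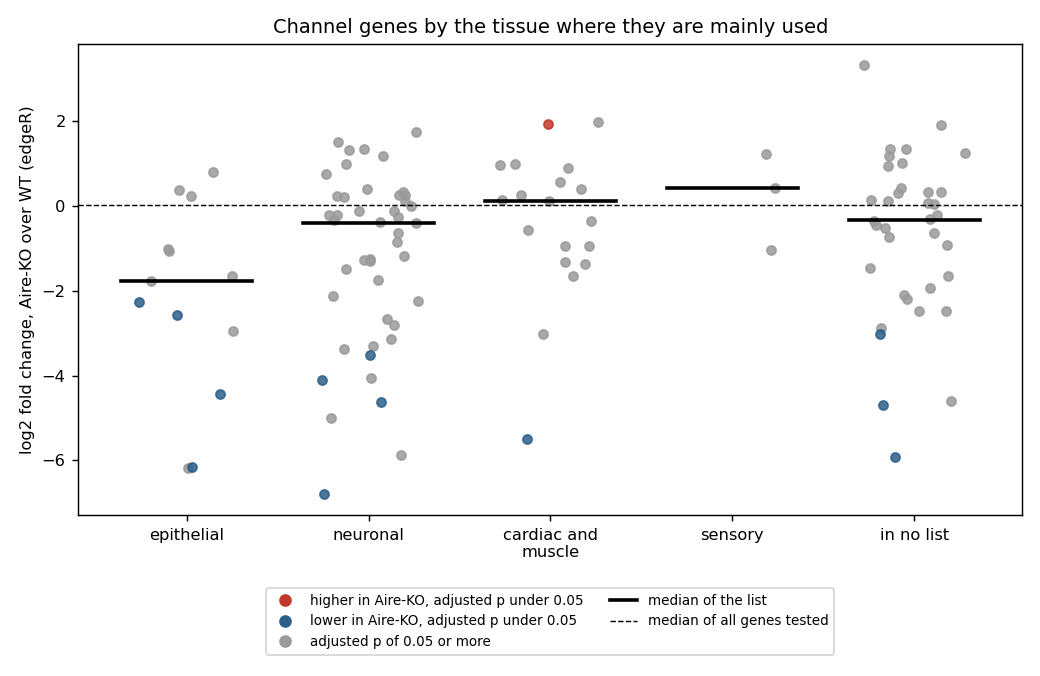
Log2 fold change (Aire-KO over WT, edgeR, y axis) of the 116 channel genes tested, grouped by list (x axis). Thick bars are list medians (−1.76 epithelial, −0.40 neuronal, 0.13 cardiac and muscle, 0.43 sensory, −0.33 in no list), the dashed line is the median of all genes tested (0.03), and coloured points passed an adjusted p under 0.05.

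Markers of other cell types were set beside the epithelial channels, and they did not all move the same way. Of the 4 ionocyte markers, Foxi1 (45 and 171 counts labelled Aire-KO against 2370 and 1467 labelled WT) and Foxi2 (0 and 0 labelled Aire-KO against 594 and 450 labelled WT) were lower. The ionocyte sum was 34.1 and 10.5 CPM labelled Aire-KO against 62.2 and 50.4 CPM labelled WT, most of it from Cftr, which was not called. Of 5 neuroendocrine markers, Neurod1 was lower, and the sum was 625 and 523 CPM labelled Aire-KO against 339 and 334 CPM labelled WT, most of it from Insm1. No marker of the 4 for tuft cells was called. Of 11 dendritic cell and macrophage markers 3 were lower, with a sum of 518 and 525 CPM labelled Aire-KO and 420 and 749 CPM labelled WT. Most of that sum came from Lyz2, which was not called. Of the 11 log2 fold changes, 9 were negative and 2 positive (median −1.35). The part of these cell types in the channel results was not tested.

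The fold changes differed with the level of the members. Split by mean RPKM in the libraries labelled WT, the lowest 39 genes tested (up to 0.662 RPKM) had a median log2 fold change of −1.32, the middle 38 one of −0.54, and the highest 39 (from 1.96 RPKM) one of 0.27. Of those 3 groups, 2, 5 and 5 genes were lower, and the gene that was higher was in the highest. The split uses the same WT values as the fold change, so it is given as a description.

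Neighbouring channel genes did not always share a call. Kcnk5 and Kcnk16, 81 kb apart on chromosome 14 and on the same strand, were both lower. Kcnj16 (log2 −4.44) lies 38.2 kb from Kcnj2 (0.41), the inward rectifier of heart and muscle, whose genotypes overlapped. Kcna5 (−5.50) lies 101 kb from Kcna1 (−0.11). Kcnj9 (−4.11) lies 11.9 kb from Kcnj10 (−1.66). Kcnmb1 (−3.01) lies inside the span of Kcnip1 (−4.62; 11:33529339-33893152) on the opposite strand, with no exon bases in common. None of the 13 genes called shared exon bases with another annotated gene.

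Promoter windows from RefSeq (GRCm38.p6, 250 bases before to 50 after the start) were held for 87 members. A TATAAA within 50 bases before the start, on the gene's strand, was in 1 of the 87 windows (1.15%), against 3.15% of 27025 genes. The observed over expected CpG was 0.33 at the median of 11 genes that were lower, 0.474 of the 73 with no call and 0.39 of all genes. The same measure was 0.254 in 11 epithelial, 0.513 in 32 neuronal and 0.408 in 15 cardiac and muscle channels. No test was run on these values.

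A related list of 39 other channel and regulator genes gave 1 lower (2.56%, beside 6.3% of all genes) and 2 higher (5.13%, beside 0.268%). Cacng3, a neuronal gamma subunit, had 0 and 0 counts labelled Aire-KO against 99 and 26 labelled WT, which is at least 45.2-fold lower when 3 counts over both libraries stand for the floor. Cacng7 (848 and 955 counts labelled Aire-KO, 228 and 107 labelled WT, log2 2.40, adjusted p = 0.0452, edgeR) and Cacng8 (log2 2.05, adjusted p = 0.0448), also gamma subunits, were higher. Abcc8, the sulfonylurea receptor that assembles with Kcnj11, had a log2 fold change of 0.79 and an adjusted p of 0.27.

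The study's own measure was the d3'UTR ratio, the read density downstream of the first known polyadenylation site of the last exon over that upstream of it, where a low ratio means few reads from the long 3'UTR. Both parts were present for 33 channel genes. The median ratio of members with at least 20 upstream reads was 0.433 and 0.219 in the libraries labelled Aire-KO (25 genes each), and 0.483 and 0.245 in those labelled WT (31 and 26 genes). Over all genes it was 0.41 and 0.335 labelled Aire-KO, and 0.43 and 0.349 labelled WT. The 2 experiments thus differed more than the genotypes. Of 26 members with a ratio in both libraries labelled WT, 10 were under 0.25 in both (38.5%, against 35.5% of all genes) and 6 over 0.75. Among the 10 were Kcnh2, Kcnj11 and Kcnj15, whose d3'UTRs of 24, 40 and 52 bp hold no or hardly any 50 bp read. With d3'UTRs of at least 100 bp, a limit chosen after seeing the data, 7 of 23 members were under 0.25 (30.4%, against 29% of all genes).

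Among abundant members, ratios near 0 and near 1 were both listed. Kcnj15 had 1 and 3 reads in its d3'UTR labelled Aire-KO and 4 and 0 labelled WT, beside 25559 to 63499 upstream reads, in a part of only 52 bp. Cacna1g, with 414 bp, had ratios of 0.593 and 0 labelled Aire-KO and 0.181 and 0.2 labelled WT. Scn4b (0.983 and 0.984 labelled Aire-KO, 1.30 and 1.03 labelled WT) and Scn2b (0.797 and 0.957 labelled Aire-KO, 0.97 and 1.13 labelled WT) had ratios near 1. Kcna6 had 1.4 in the second library labelled Aire-KO, too few reads in the first, and 0.86 and 1.12 labelled WT.

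No member passed the test of d3'UTR usage. Of 23 members tested for the interaction of region and genotype, 0 passed an adjusted p under 0.05 (edgeR), as did 0 of all 7637 RefSeq IDs (0%), and the same was found with the replicate block. At an unadjusted p under 0.05 there were 2. Cacna1d had ratios of 1.33 and 1.56 labelled Aire-KO against 2.97 and 3.49 labelled WT (log2 usage −1.16, unadjusted p = 0.00762). Cacna1s had 31 and 27 d3'UTR reads beside 7508 and 12465 upstream labelled Aire-KO, against 1 and 0 beside 2123 and 1913 labelled WT (log2 usage 3.31, unadjusted p = 0.016). In both genotypes its ratio stayed under 0.01. Of Cacna1d, 5.54% of the exon bases are shared with Chdh on the opposite strand. Next by p in each direction were Kcnk6 (log2 usage −0.31) and Kcnf1 (3.62), a silent Kv subunit.

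**Figure D4:**
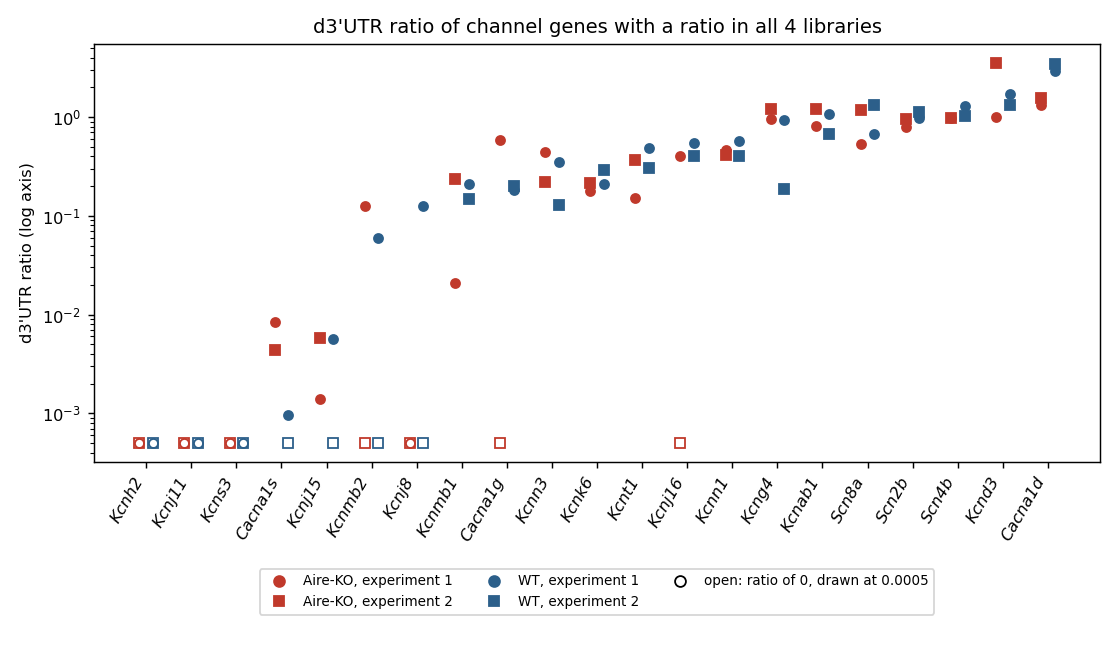
d3'UTR ratio (y axis, log scale, no unit) of the 21 channel genes with a ratio in all 4 libraries (x axis, ordered by the mean ratio in the libraries labelled WT), with Aire-KO left of WT. Open symbols are ratios of 0, drawn at 0.0005. Ratios span from 0 in all libraries (Kcns3, with 538 bp, and Kcnh2 and Kcnj11, whose parts of 24 and 40 bp cannot hold a 50 bp read) to 2.97 and 3.49 labelled WT in Cacna1d.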

How the data were processed

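Per the labels and the methods, RNA of sorted mTEChi was sequenced from poly(A)+ libraries without strand information. Reads were cut by the authors to 50 bp, passed through the CASAVA filter and aligned to mm9 (Bowtie 1.0.0, submitters' notes), and bedtools gave the number wholly inside RefSeq exons. Deposited are raw counts per RefSeq ID and per part of the transcript, with the last exon divided at the first known polyadenylation site, without normalization. No column was left unused.

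Of 30794 RefSeq IDs, 29348 (95.3%) were matched to a symbol through RefSeq (GRCm38.p6). 1446 had none, and a neuronal list entry, Scn9a, had no matched ID. The ID with most counts stood for each gene. Gene spans come from GENCODE vM1 (mm9). Genotypes were compared with edgeR 4.0.16 (TMM, filterByExpr, quasi-likelihood test, genotype only), adjusted by Benjamini and Hochberg over all 20560 genes, at 0.05. TMM factors were 0.854 and 0.945 (Aire-KO) and 1.149 and 1.078 (WT). CPM are TMM-scaled and RPKM are not. SE was derived from the F statistic. DESeq2 1.42.0 was an alternative, with other size factors, no filter, all RefSeq IDs, the replicate block and each library left out.

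The experiment pairs the libraries, as the methods speak of a replicate experiment. Deviations of the libraries of an experiment from their group means correlated at 0.689 over 20560 genes. The scripts were tested on simulated counts. R 4.3.3, limma 3.58.1, Python 3.11.15, pandas 2.3.3, numpy 2.4.6, scipy 1.17.1 and matplotlib 3.10.9 were used.

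Members and lists were chosen with earlier results of these data known. Genes named by rule were all those called, the 10 of highest RPKM in WT, the first 3 by p of each list, the 4 of most upstream reads with d3'UTR ratios under 0.25 or over 0.75 in both WT libraries, the first 2 of the usage test in each direction, and Aire. Others were chosen after their values were seen, and some results under these rules are not reported here.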

Additional observations from a re-analysis of the deposited data

How the results depend on the processing

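All 13 calls held under median-of-ratios size factors, library sizes alone, DESeq2, no filter, the replicate block, all RefSeq IDs and without Aire-KO replicate 1. Kcnk5 was lost without Aire-KO replicate 2. Without WT replicate 1, Cacna1s, Kcnc4, Kcnj9, Kcnk1, Kcnk5, Kcnk9, Kcnmb3 and Kcns1 were lost, and without WT replicate 2, Cacna1s, Kcnc4, Kcnk1, Kcnmb3 and Kcns1. Leaving out each library, between 8 and 26 channel genes were lower and between 0 and 8 higher in the libraries labelled Aire-KO. For the lists these ranges were 2 to 12 lower and 0 to 3 higher (neuronal), 1 to 4 and 0 to 2 (cardiac and muscle), and 3 to 5 and 0 to 0 (epithelial). DESeq2 called 23 lower and 5 higher (neuronal 10 and 2, cardiac and muscle 2 and 2). With the replicate block, 25 were lower and 16 higher (neuronal 10 and 5, cardiac and muscle 3 and 5, epithelial 7 and 1). Without a filter on low counts there were 2 higher, with 7 neuronal and 2 cardiac and muscle genes lower. The share of all genes called in that fit is not given, so these counts have no comparison. With library sizes alone, 8 neuronal and 2 cardiac and muscle genes were lower, and the median of all genes moved to −0.27, against 0.03. With library sizes alone 14 of 116 fold changes turned negative, none of a called gene, among them Scn4b (−0.15), Kcnj11 (−0.017), Kcnn4 (−0.061) and Scn2b (−0.056). Of the genes named by rule, those that turned sign on leaving out a library were Kcnj15 (−0.29 to 0.86), Cacna1d (−0.24 to 0.90), Scn4b (−0.12 to 0.38), Cacna1g (−0.68 to 0.25) and Kcna6 (−2.06 to 0.69, with 0.12 without WT replicate 2). The d3'UTR usage of Kcnf1 ranged from −0.37 to 7.05. The cause was not tested. With 2 pools per genotype, a p above the threshold does not show that a member did not differ.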
